A study of Mus musculus with 22 samples.

Results

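The enzymes described here attach glucuronic acid, sulphate or glutathione to small molecules, or oxidize them with a flavin cofactor. The members are the rows of the count table with the biotype protein_coding whose symbol opens with Ugt1a, Ugt2a, Ugt2b, Gsta, Gstk, Gstm, Gsto, Gstp, Gstt, Mgst, Fmo or Sult followed by a digit. The rule found 63 members among 46078 rows and used no measured value. They comprised 19 UDP-glucuronosyltransferases, 23 glutathione S-transferases (the microsomal ones included), 17 sulphotransferases and 4 flavin monooxygenases. A further 12 rows had a fitting symbol and another biotype, among them Fmo2, Mgst2 and Gstm5, and were not members.

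Conjugation is the step of detoxification that makes a lipid-soluble molecule soluble in water, after which transporters export the product into the gut lumen or the blood. UDP-glucuronosyltransferases sit in the endoplasmic reticulum and use UDP-glucuronic acid, sulphotransferases are mostly cytosolic and use activated sulphate, and glutathione S-transferases couple glutathione to reactive compounds. Flavin monooxygenases oxidize nitrogen- and sulphur-containing compounds with NADPH. In the colon these enzymes are known mainly from the absorptive epithelium, which meets dietary, bacterial and bile-derived compounds.

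Poly(A) RNA of the distal colon was sequenced in 22 libraries, which the labels give as separate samples taken mouse by mouse. The groups were C57BL/6 mice aged 14 weeks (n = 8, 4 of each sex), Winnie mice aged 14 weeks (n = 7, 3 males and 4 females) and Winnie mice labelled Winnie-Prolapse, aged 18 weeks (n = 7, 4 males and 3 females). The study's methods give fewer Winnie mice than the labels, which were followed here. Winnie mice bear a missense change in Muc2, the main goblet cell mucin, and are a model in which colitis arises by itself. Both Winnie groups carry the change, the submitters describe the prolapse group as highly inflamed, and since that group was also older, age and prolapse cannot be told apart.

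The libraries held between 24817527 and 36344372 counted reads. Levels are given as CPM, the read count of a gene relative to the library's total after scaling by edgeR's TMM factors, and for groups of this size as the lowest, the median and the highest library. A difference was called at an adjusted p under 0.001 and at least 1.5-fold in edgeR's quasi-likelihood test with Benjamini-Hochberg adjustment over all genes tested, and a looser count used an adjusted p under 0.05. C57BL/6 replicate 7 stood apart before any comparison: Ugt2b5 had 535 reads there against at most 3 in any other library, and the gut transcription factor Cdx2 stood at 304 CPM against 2.20 to 60.7 CPM in the other C57BL/6 libraries. Whether that sample came from another stretch of the colon was not tested. Milk protein transcripts made up 18.0% of the reads of Winnie-Prolapse replicate 6. In bulk tissue, fewer cells of a type and less RNA per cell cannot be told apart.

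Of the 63 members, 48 had at least 1 read in some library and 35 had enough reads for edgeR's test in any comparison of groups. The 15 members at 0 were the 8 Sult2a rows, Sult3a1, Fmo9, Ugt1a8, Ugt1a10, Ugt2b37 and second copies of Gstp1 and Gstp2 on a patch scaffold. None of the 286 patch-scaffold rows of the count table had a read, so the 0 of these copies says nothing of expression. Elsewhere a count of 0 allows up to 3 reads, or 0.0855 to 0.145 CPM depending on the library, and covers counting error only. It does not cover how shared reads were assigned, and Ugt1a8 and Ugt1a10 share 59.2% and 58.1% of their exonic bases with other genes of their locus. The other 13 members, not tested between groups by edgeR, stayed at 9 reads or fewer in every library, apart from Ugt2b5 and Ugt2b36 in C57BL/6 replicate 7 and Gsta2, which reached 54 reads in Winnie-Prolapse replicate 2. Ugt2a1, an enzyme best known from the olfactory epithelium, reached at most 6 reads. It shares 98.8% of its exonic bases with genes on the same strand, Ugt2a2 among them. How shared reads were assigned is not given in the sources used here, so its level is uncertain.

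Levels per kilobase of exon allowed members to be compared with each other. In C57BL/6, Mgst3, a microsomal transferase that also handles lipid peroxides, came highest, at 447 ± 61.2 CPM per kilobase (SD, n = 8). Gsto1, an omega-class transferase, followed at 158 ± 13.7 CPM per kilobase, and its libraries (142 to 182) lay below every library of Mgst3 (342 to 546). The next 2 by this measure were the phenol sulphotransferase Sult1a1 at 153 ± 38.7 and the mu-class transferase Gstm1 at 148 ± 29.7 CPM per kilobase, and the ranges of Gsto1, Sult1a1 and Gstm1 overlapped. Ugt2b34 was the most abundant UDP-glucuronosyltransferase, at 102 ± 12.1 CPM per kilobase, and Ugt1a7c had 16.6 ± 3.18. Fmo5, the most abundant flavin monooxygenase among the members, ranked 19 at 7.95 ± 1.85 CPM per kilobase. In Winnie-Prolapse the order of the means was Mgst3, Gsto1 and Sult1b1, with Sult1a1 at rank 9, and the ranges of neighbours in that order overlapped.

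The comparison of Winnie-Prolapse with C57BL/6 asked how the enzymes stood in the highly inflamed group. Of 34 members tested, 11 fell and 0 rose, against 8.47% of all 17397 genes tested that fell and 9.84% that rose. The members' share of falls was 32.4%. The 11 include Ugt2b1, which had enough reads for the test only through C57BL/6 and could only be called lower. At an adjusted p under 0.05, 16 fell (47.1%, against 17.7% of all genes) and 1 rose (16.7% of all genes rose). These 16 include Ugt2b1 and Gsto2, which both had enough reads for the test only through C57BL/6 and could only be called lower. The libraries did not overlap and lay lower in Winnie-Prolapse for 9 members (7.52% of all genes) and lay higher for 0 (9.06%). The median log2 fold change was -0.53 over the members tested and -0.01 over all genes. The 63 rows together had 2970 ± 170 CPM in C57BL/6 (SD, n = 8), 3060 ± 555 in Winnie (n = 7) and 2030 ± 670 in Winnie-Prolapse (n = 7). Without Winnie-Prolapse replicate 5, 7 of the 11 calls were left and Gstm3, Ugt2b34, Ugt2b1 and Sult1d1 were lost. There were 10 calls without C57BL/6 replicate 7 and 8 without Winnie-Prolapse replicate 6. Within males alone and within females alone 0 members were called (1.76% and 1.45% of all genes were). All 11 log2 differences were below 0 in each sex. The 11 had been chosen by their fall in the same libraries, so these signs are no separate evidence. DESeq2 called 13 of 38 members lower (10.6% of all genes) and 2 higher (12.6% of all genes).

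**Figure D1:**
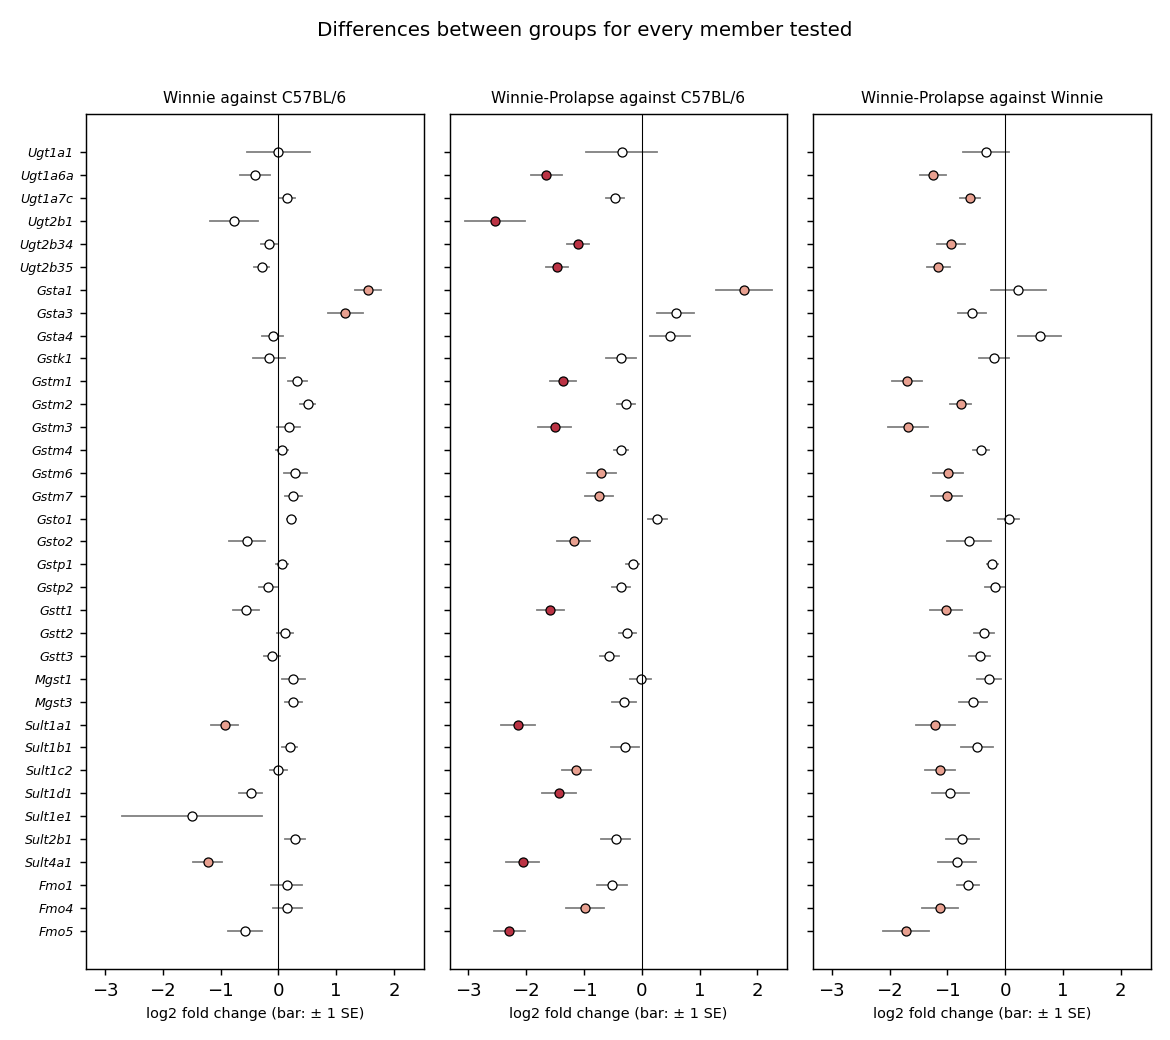
Log2 fold change of every member tested in the 3 comparisons of groups, with bars of 1 standard error. Dark red points passed an adjusted p under 0.001 and 1.5-fold, pale red points an adjusted p under 0.05 and 1.5-fold, and open points neither. In Winnie-Prolapse against C57BL/6 most points lie left of 0 and the 11 dark points are all lower, with the alpha-class transferases on the right.

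Fmo5, which catalyses oxygen insertion into ketones and is the flavin monooxygenase of gut epithelium and liver, had the largest fall among the members tested in this comparison whose median in C57BL/6 was above 1 CPM. It stood at 31.9, 43.7 and 60 CPM in C57BL/6, at 8.62, 29.1 and 63.8 CPM in Winnie and at 3.29, 9.62 and 15.7 CPM in Winnie-Prolapse. Every Winnie-Prolapse library lay below every C57BL/6 library, while the Winnie libraries overlapped with those of each other group. The difference from C57BL/6 was -2.29 ± 0.27 on the log2 scale (SE, 4.87-fold lower, adjusted p = 7.24e-06). Fmo5 lies at chr3:97628804-97655282 (GRCm38), apart from the other family members, which lie on chromosome 1. Of those, Fmo4 fell only at the looser limit, by 0.98 ± 0.33 (adjusted p = 0.0222), and Fmo1 had a log2 difference of -0.51 ± 0.26 (adjusted p = 0.107). Relative to the epithelial gene Epcam, Fmo5 had a log2 ratio of -5.63 to -4.79 in C57BL/6 and of -8.79 to -6.97 in Winnie-Prolapse, a description, since Epcam is among the epithelial markers that were not called. Mature colonocyte markers, which went from a summed median of 9800 CPM in C57BL/6 to 2830 CPM in Winnie-Prolapse, moved with Fmo5, and their part was not tested.

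Among the sulphotransferases, 3 of 6 tested members fell and 0 rose, against 8.47% of all genes that fell and 9.84% that rose. Sult1a1, which sulphates phenols, stood at 132, 215 and 319 CPM in C57BL/6, at 49.7, 129 and 171 CPM in Winnie and at 24.1, 36.0 and 98.7 CPM in Winnie-Prolapse. The levels of Winnie-Prolapse and C57BL/6 did not overlap, and the difference was -2.14 ± 0.30 on the log2 scale (4.41-fold lower, adjusted p = 4.1e-05). Part of its exons overlaps exons of Sgf29 on the opposite strand, and whether reads were counted by strand is not given in the sources used here. Sult4a1, a sulphotransferase of the nervous system, fell from 3.32 to 8.14 CPM in C57BL/6 to 0.577 to 2.66 CPM in Winnie-Prolapse, again with no overlap (log2 difference -2.06 ± 0.29, adjusted p = 4.05e-05). Markers of enteric neurons and glia moved the same way, with 6 of 8 lower and none higher, and a summed level of 55.0 to 128 CPM in C57BL/6 against 19.2 to 62.0 CPM in Winnie and 22.9 to 66.2 CPM in Winnie-Prolapse. The part of those cells in the Sult4a1 result was not tested. Sult1d1, which acts on catecholamines, stood at 148, 175 and 310 CPM in C57BL/6 and at 31.4, 53.5 and 122 CPM in Winnie-Prolapse. It fell by 1.43 ± 0.29 on the log2 scale (adjusted p = 0.000803), without overlap, though it was called in 3 of the 15 fits that left out a library, with adjusted p up to 0.00269.

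Not all abundant sulphotransferases were called. Sult1b1, which sulphates thyroid hormones and lies next to Sult1d1 in a run of 13 members at chr5:86889767-87591594, stood at 179, 226 and 259 CPM in C57BL/6 and at 77.5, 136 and 335 CPM in Winnie-Prolapse. These levels overlapped and the log2 difference of -0.29 ± 0.24 was not called (adjusted p = 0.327). The log2 ratio of Sult1d1 to Sult1b1 went from -0.59 to 0.56 in C57BL/6, from -1.43 to -0.49 in Winnie and from -1.77 to -1.08 in Winnie-Prolapse, and the first and last of these ranges did not overlap. Since Sult1d1 was called and Sult1b1 was not in the same libraries, the ratio is no separate evidence. Sult1c2 fell at the looser limit, by 1.13 ± 0.25 (adjusted p = 0.00134), with no overlap between the groups. Sult2b1, the cholesterol sulphotransferase, had a log2 difference of -0.45 ± 0.25 (adjusted p = 0.147).

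**Figure D2:**
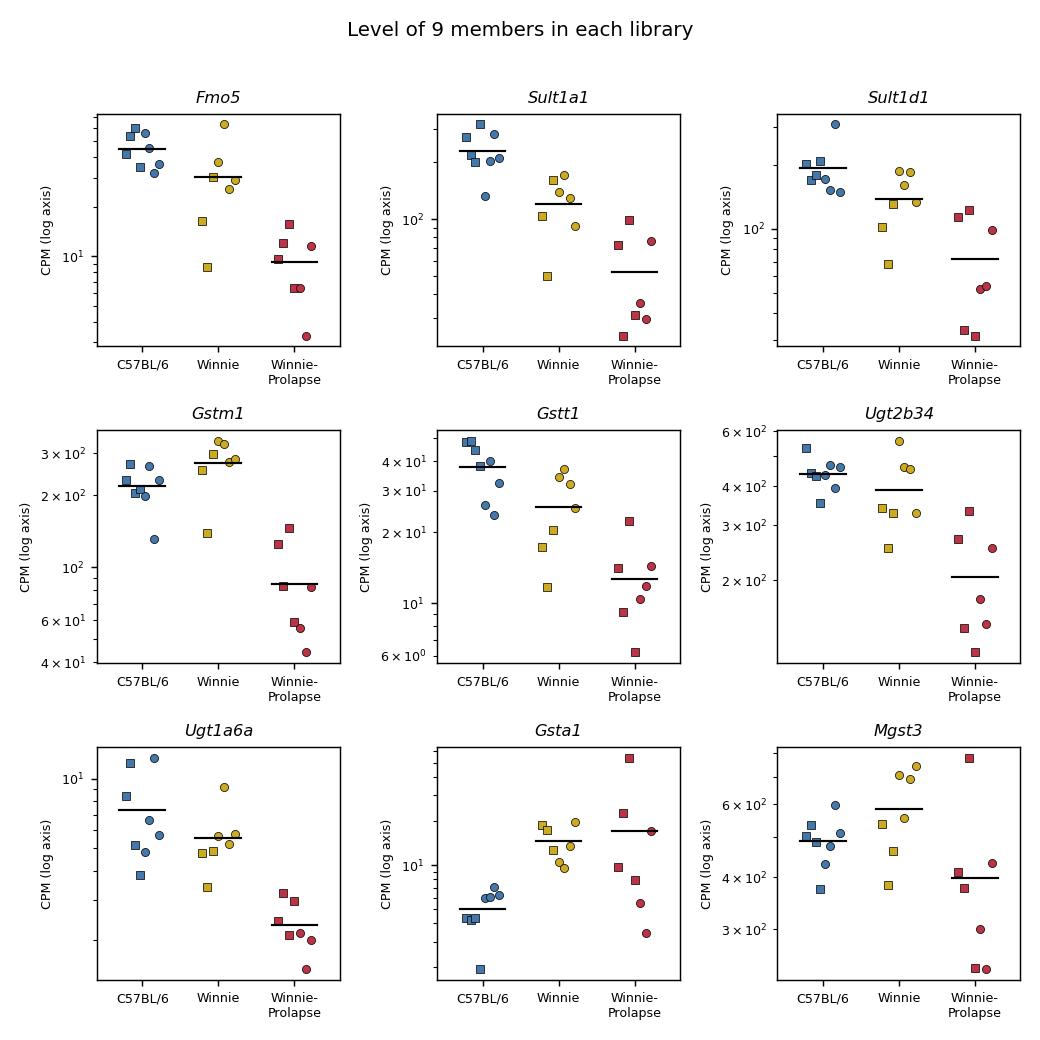
Level of 9 members in each library, in CPM on log axes that do not start at 0. Squares are males, circles are females and horizontal lines are group means. The Winnie-Prolapse libraries of Fmo5, Sult1a1, Sult1d1, Gstt1, Ugt2b34 and Ugt1a6a lie below all C57BL/6 libraries, those of Gstm1 overlap them at the edge, and Gsta1 and Mgst3 have 1 high Winnie-Prolapse library, replicate 3.

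Among the UDP-glucuronosyltransferases, 4 of 6 tested members fell and 0 rose, against 8.47% of all genes that fell and 9.84% that rose. Ugt2b34 stood at 353, 438 and 530 CPM in C57BL/6, at 253, 340 and 559 CPM in Winnie and at 117, 174 and 333 CPM in Winnie-Prolapse, where it fell by 1.11 ± 0.19 on the log2 scale (2.16-fold lower, adjusted p = 0.000237). Ugt2b35, from the same run of genes on chromosome 5, went from 16.6, 22.3 and 27.6 CPM to 4.22, 9.05 and 11.7 CPM (log2 difference -1.46 ± 0.19, adjusted p = 2.07e-05). The Winnie-Prolapse libraries of both lay below all C57BL/6 libraries. Ugt2b1 fell by 2.54 ± 0.52 on the log2 scale (adjusted p = 0.000863) at 0.659 CPM or less in every C57BL/6 library, and was named after its values were seen. It had 5 to 18 reads in the C57BL/6 libraries and 0 to 6 in the Winnie-Prolapse libraries. It thus had enough reads for the test through C57BL/6 alone, so only a fall could be called. It could be tested in 8 of the 15 fits that left out a library and was called in 3 of them. Ugt1a6a, which conjugates planar phenols, went from 3.82, 6.16 and 12.3 CPM to 1.5, 2.15 and 3.19 CPM (log2 difference -1.65 ± 0.27, adjusted p = 0.000129). Ugt1a7c, the most abundant member of its locus, had a log2 difference of -0.46 ± 0.16 (adjusted p = 0.0236) and fell short of the 1.5-fold limit. Ugt1a1, the bilirubin-conjugating enzyme, stood at 2.31, 3.64 and 34.9 CPM in C57BL/6, the highest of these in replicate 7, and was not called (log2 difference -0.35 ± 0.62, adjusted p = 0.655). Its log2 difference was 0.96 ± 0.52 in males alone and -1.05 ± 0.94 in females alone, which include replicate 7. The direction for Ugt1a1 is therefore not settled. The 9 Ugt1a genes at chr1:88055388-88220002 share their last exons, which hold 50.3% of the exonic bases of Ugt1a6a and 54.6% of those of Ugt1a7c. How shared reads were assigned is not given in the sources used here, so levels within this locus are uncertain.

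Among the glutathione S-transferases 2 of 6 tested mu-class members and 1 of 3 tested theta-class members fell, and no tested member of the other classes was called. Of all genes tested, 8.47% fell and 9.84% rose. Gstm1 stood at 132, 223 and 270 CPM in C57BL/6, at 139, 285 and 337 CPM in Winnie and at 44.1, 83.0 and 146 CPM in Winnie-Prolapse. The ranges of Winnie-Prolapse and C57BL/6 overlapped at their edge, and the log2 difference was -1.36 ± 0.23 (2.57-fold lower, adjusted p = 0.00019). The counts of the pseudogene Gstm2-ps1 ran with those of Gstm1 at a log2 ratio between 3.26 and 3.67 in all 22 libraries, and reads shared between these copies cannot be assigned with certainty. Gstm3 fell by 1.51 ± 0.29 (adjusted p = 0.000534), though it was called in 6 of 15 fits that left out a library. Their neighbour Gstm2 stood at 63.8, 93.1 and 102 CPM in C57BL/6 and at 48.8, 68.4 and 116 CPM in Winnie-Prolapse and was not called (log2 difference -0.27 ± 0.16, adjusted p = 0.174). Accordingly, the log2 ratio of Gstm1 to Gstm2 lay between 1.05 and 1.52 in C57BL/6 and between -0.30 and 0.57 in Winnie-Prolapse, without overlap. This pair sets a called member over an uncalled one in the same libraries, so the ratio is no separate evidence. Of the other mu-class members, Gstm6 (-0.70, adjusted p = 0.0253) and Gstm7 (-0.74, adjusted p = 0.0224) fell at the looser limit. All 6 mu-class genes lie within chr3:107926334-108044894.

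The theta-class genes lie within chr10:75774115-75837424. Gstt1, which acts on small halogenated compounds, went from 23.7, 39.0 and 48.7 CPM in C57BL/6 to 6.19, 11.8 and 22.3 CPM in Winnie-Prolapse, without overlap (log2 difference -1.58 ± 0.23, 3.00-fold lower, adjusted p = 5.32e-05). Gstt2 in the same run stood at 25.2, 32.3 and 40.8 CPM and at 17.2, 28.6 and 36.9 CPM, with a log2 difference of -0.25 ± 0.15 (adjusted p = 0.169). Gstt3 had a log2 difference of -0.56 ± 0.16 (adjusted p = 0.00797), short of the 1.5-fold limit. The log2 ratio of Gstt1 to Gstt2 went from -0.13 to 0.44 in C57BL/6, from -1.20 to -0.13 in Winnie and from -1.47 to -0.73 in Winnie-Prolapse. Since Gstt1 was called and Gstt2 was not in the same libraries, this ratio is no separate evidence.

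All 3 tested alpha-class members had log2 differences above 0. Gsta1, which reduces lipid hydroperoxides, stood at 1.94, 5.16 and 7.06 CPM in C57BL/6, at 9.52, 13.5 and 19.7 CPM in Winnie and at 3.43, 9.65 and 54.3 CPM in Winnie-Prolapse. It was the 1 member that rose at the looser limit in Winnie-Prolapse (log2 difference 1.77 ± 0.48, adjusted p = 0.00611). Without Winnie-Prolapse replicate 3, the highest library, the log2 difference was 1.15 (adjusted p = 0.0162). Gsta4, which detoxifies the lipid aldehyde 4-hydroxynonenal, stood at 15.8, 26.9 and 39.4 CPM in C57BL/6 and at 11.8, 40.4 and 79.9 CPM in Winnie-Prolapse, a log2 difference of 0.49 ± 0.35 that was not called (adjusted p = 0.251). Of the omega class, the scarce Gsto2, at 0.196 to 1.28 CPM in these 2 groups, fell at the looser limit (log2 difference -1.18, adjusted p = 0.00343). Gsto2 had 12 to 35 reads in the C57BL/6 libraries and 5 to 27 in the Winnie-Prolapse libraries. It had enough reads for the test through C57BL/6 alone, so only a fall could be called. The other abundant members gave no call. Mgst3 stood at 375, 495 and 599 CPM against 240, 377 and 778 CPM (log2 difference -0.31 ± 0.21, adjusted p = 0.222) and Gsto1 at 288, 313 and 368 CPM against 235, 330 and 577 CPM (0.27 ± 0.17, adjusted p = 0.189). Gstp1, the pi-class enzyme, had a log2 difference of -0.16 ± 0.11 (adjusted p = 0.222), Gstk1, the mitochondrial and peroxisomal enzyme, of -0.36 ± 0.26 (adjusted p = 0.262), and Mgst1 of -0.02 ± 0.18 (adjusted p = 0.928).

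**Figure D3:**
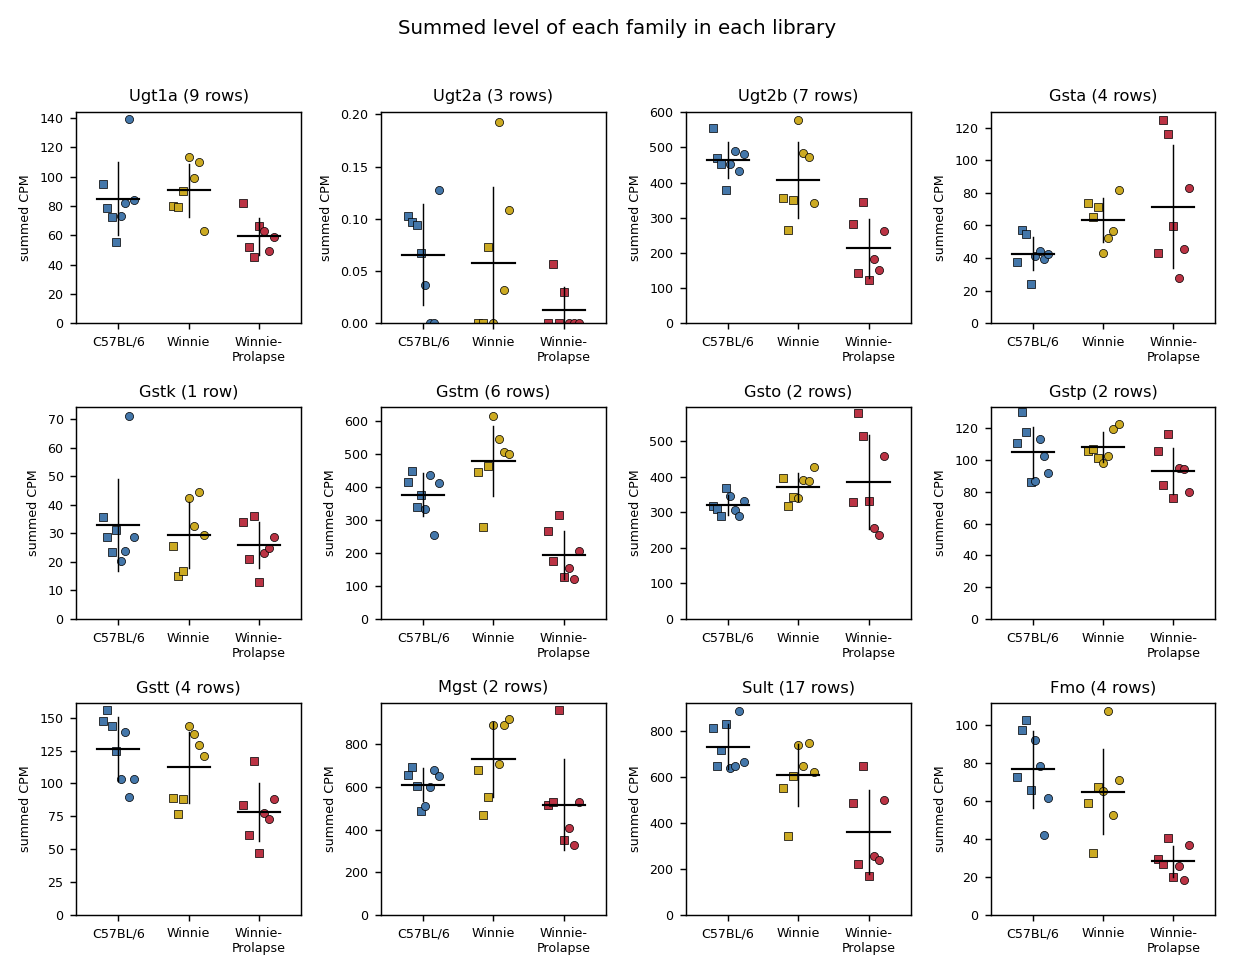
Summed level of each family in each library, in CPM on axes that start at 0. Squares are males, circles are females, horizontal lines are means and vertical bars are 1 SD; the rows on a patch scaffold are left out. All families but Gsta and Gsto have their lowest mean in Winnie-Prolapse, among them Fmo, Ugt2b, Gstm and Sult at 28.2, 213, 195 and 360 CPM. Gsta averages 71.5 CPM there against 42.7 CPM in C57BL/6, and Gsto 386 CPM against 320 CPM.

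Members that fell together were looked at for shared letters in the 250 bases before their RefSeq start sites (GRCm38.p6), which the RefSeq table gave for 53 members. Searched on both strands, the xenobiotic response core GCGTG stood before 9 of the 53 members (30.9% of all 27025 genes with a promoter hold it), the antioxidant response core TGACNNNGC before 3 (11.5%), the HNF1 core GTTAAT before 12 (7.49%) and the TATA motif TATAAA before 11 (14.3%). Of the 10 members called lower that had a promoter, 2 held GCGTG, 3 held GTTAAT, 2 held TATAAA and 0 held TGACNNNGC. A match describes the letters only, and the absence of one says nothing of the factor. The promoters shown are those of the 4 members called lower that held GCGTG or GTTAAT, 1 for each, with the matches in capitals and positions counted back from the start site. In Sult1a1 (chr7:126676419-126676668, minus strand) GTTAAT began at -232. In Sult1d1 (chr5:87569007-87569256, minus strand) GTTAAT began at -79 and GCGTG lay on the other strand from -47. In Gstm1 (chr3:108017974-108018223, minus strand) GCGTG began at -76, and the window of its other RefSeq start (chr3:108017819-108018068), which overlaps the window shown and also holds GCGTG, with TATAAA, is not printed. In Ugt1a6a (chr1:88134559-88134808, plus strand) GTTAAT lay on the other strand from -50.
Sult1a1: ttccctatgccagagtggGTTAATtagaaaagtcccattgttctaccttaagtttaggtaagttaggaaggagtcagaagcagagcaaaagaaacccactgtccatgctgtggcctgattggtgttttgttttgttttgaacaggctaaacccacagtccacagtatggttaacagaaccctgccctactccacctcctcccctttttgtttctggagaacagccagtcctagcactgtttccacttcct
Sult1d1: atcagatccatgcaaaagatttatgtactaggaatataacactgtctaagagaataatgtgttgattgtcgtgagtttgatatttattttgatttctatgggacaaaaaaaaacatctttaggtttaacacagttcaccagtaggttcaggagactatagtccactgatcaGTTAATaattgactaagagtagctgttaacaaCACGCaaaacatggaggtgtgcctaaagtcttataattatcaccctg
Gstm1: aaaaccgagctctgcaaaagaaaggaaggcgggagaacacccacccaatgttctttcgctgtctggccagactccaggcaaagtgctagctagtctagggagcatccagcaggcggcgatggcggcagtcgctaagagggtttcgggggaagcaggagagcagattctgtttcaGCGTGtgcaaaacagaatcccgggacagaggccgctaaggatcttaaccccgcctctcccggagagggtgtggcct
Ugt1a6a: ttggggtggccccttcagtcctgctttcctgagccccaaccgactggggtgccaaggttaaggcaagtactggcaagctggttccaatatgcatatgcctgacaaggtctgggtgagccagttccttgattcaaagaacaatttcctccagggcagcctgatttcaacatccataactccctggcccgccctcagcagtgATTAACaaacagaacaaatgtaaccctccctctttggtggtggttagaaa

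The comparison of Winnie with C57BL/6 at the same age gave 0 calls among 35 members, higher or lower, against 0.0868% of 17289 genes called higher and 0.00578% called lower by edgeR. An unadjusted p under 0.05 was reached by 9 members (39.9% of all genes), DESeq2 called 3 members (8.57% of its members tested, against 6.43% of all genes) and limma-voom 0. At an adjusted p under 0.05, 2 members rose (7.42% of all genes) and 2 fell (8.53% of all genes), shares of 5.71% each. Gsta1 rose by 1.55 ± 0.23 on the log2 scale (2.92-fold, adjusted p = 0.00138) and was the 1 member whose libraries did not overlap and lay higher (0.711% of all genes), while 0 lay lower without overlap (0.885%). Its relative Gsta3 stood at 2.87, 10.5 and 21.4 CPM in C57BL/6 and at 14.8, 24.2 and 31.0 CPM in Winnie, and rose by 1.16 ± 0.30 (adjusted p = 0.0129). Sult1a1 fell by 0.93 ± 0.23 (adjusted p = 0.0109) and Sult4a1 by 1.22 ± 0.25 (adjusted p = 0.00483). At the same limit 8 of 8 enteric neuron and glia markers and 8 of 9 smooth muscle markers were lower in Winnie, and the part of those cells was not tested. Fmo5 had a log2 difference of -0.58 ± 0.30 (adjusted p = 0.163) with a wide spread, and Gstm1 of 0.33 ± 0.17 (adjusted p = 0.162). The median log2 fold change was 0.06 over the members and -0.01 over all genes.

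The comparison of Winnie-Prolapse with Winnie gave 0 calls among 33 members, and 0% of 17041 genes were called higher and 0% lower by edgeR. An unadjusted p under 0.05 was reached by 24 members (27.8% of all genes), DESeq2 called 6 (16.2% of its members tested, against 3.55% of all genes) and limma-voom 0. At an adjusted p under 0.05, 14 members fell (42.4%, against 2.72% of all genes) and 0 rose (4.27% of all genes). Mature colonocyte markers had a median log2 fold change of -1.78 in the same comparison, with 2 of 10 lower at the looser limit and summed levels of 3550 to 12100 CPM in Winnie and 1820 to 8960 CPM in Winnie-Prolapse. At that limit 3 of 9 smooth muscle markers were also lower and 6 of 6 tested squamous markers higher, and the part of these tissues was not tested. The falls among members covered 5 of 6 mu-class transferases, with Gstm1 at -1.69 ± 0.26 on the log2 scale (adjusted p = 0.00787) and Gstm3 at -1.68 ± 0.35 (adjusted p = 0.0173), and Fmo5 at -1.71 ± 0.40 (adjusted p = 0.0231). Ugt1a6a (-1.25 ± 0.22, adjusted p = 0.0119) and Ugt2b35 (-1.16 ± 0.20, adjusted p = 0.0111) were the 2 members whose libraries lay lower with no overlap (0.563% of all genes), and 0 lay higher without overlap (0.557%). The 3 tested alpha-class members gave no call at either limit and lay on both sides of 0, with log2 differences of 0.23 ± 0.48 for Gsta1, 0.60 ± 0.37 for Gsta4 and -0.57 ± 0.24 for Gsta3. The median log2 fold change was -0.64 over the members and 0.01 over all genes. The 3 comparisons share libraries, so each is to be read by its own values.

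Between the sexes, with group as a covariate over all 22 libraries, 1 of 36 members passed an adjusted p under 0.05 in edgeR, against 0.0793% of 18911 genes. That member was Sult1e1, the oestrogen sulphotransferase, which was higher in males (adjusted p = 6.65e-06). Sult1e1 had enough reads for the test through males alone, so only a higher level in males could be called. It had 15 to 135 reads in C57BL/6 males, 13 to 50 in Winnie males and 1 to 5 in Winnie-Prolapse males. Among females it had 0 reads in all 8 C57BL/6 and Winnie libraries and 1 read in total in the 3 Winnie-Prolapse libraries. Every male library therefore held at least 1 read, and the highest level was 4.23 CPM. Sult1e1 is also known from adipose tissue. Summed adipocyte markers lay at 25.5 to 84.0 CPM in C57BL/6 males and 28.7 to 200 CPM in C57BL/6 females. In Winnie the males had 15.7 to 106 CPM and the females 10.9 to 80 CPM. In Winnie-Prolapse the males had 24.9 to 37.7 CPM and the females 11.7 to 88.9 CPM. The part of this tissue in the Sult1e1 result was not tested. Leaving out the Winnie-Prolapse group raised the adjusted p to 0.0564.

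The change from C57BL/6 to Winnie was also compared between males and females, after the data had been seen. The difference of the changes passed an adjusted p under 0.05 for 2 of 35 members, Gstt1 and Gstt3, against 0.247% of 18233 genes in edgeR. Gstt1 stood at 38.1 to 48.7 CPM in C57BL/6 males and at 11.8 to 20.5 CPM in Winnie males, whereas females had 23.7 to 39.9 and 25.4 to 37.0 CPM. The log2 change was -1.44 ± 0.19 in males and 0.07 ± 0.18 in females, a difference of -1.51 ± 0.28 (adjusted p = 0.0406). Gstt3 had 57.6 to 68.6 and 38.0 to 43.4 CPM in males and 40.2 to 58.3 and 54.0 to 67.8 CPM in females, a difference of -0.92 ± 0.17 (adjusted p = 0.0422). Summed mature colonocyte markers moved with these values, at 7710 to 11800 CPM in C57BL/6 males and 3550 to 6610 CPM in Winnie males, against 9010 to 12700 CPM and 8290 to 12100 CPM in females. Summed goblet cell markers had 10800 to 15200 and 6570 to 9990 CPM in males and 11200 to 14500 and 8610 to 25200 CPM in females, and the part of either cell type was not tested. The test had 3 Winnie males, and 0 members passed in 10 of the 15 fits that left out a library, namely C57BL/6 replicates 1, 2, 3, 4, 5 and 8 and Winnie replicates 2, 4, 5 and 6. The smallest adjusted p among members in those fits lay between 0.055 and 0.153. In Winnie-Prolapse the same test gave 0 members past the limit, and 2 of 36 at an unadjusted p under 0.05, against 4.4% of all genes.

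**Figure D4:**
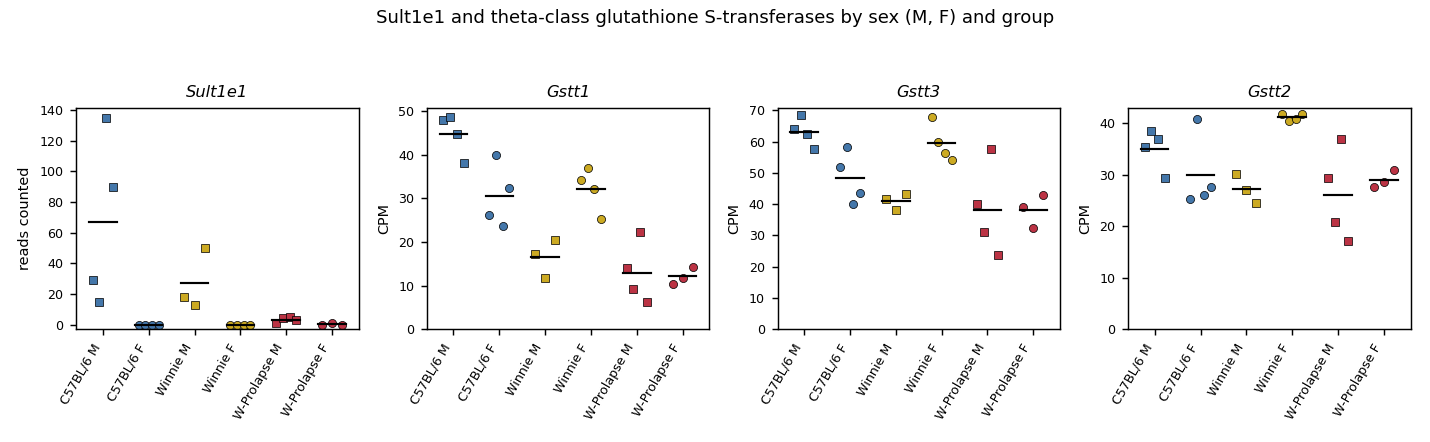
Reads of Sult1e1 and CPM of Gstt1, Gstt3 and Gstt2 in each library by group and sex, on axes that start at or just below 0 (M and squares, males; F and circles, females; horizontal lines, means). Sult1e1 has reads in all 11 males and none in the 8 females of C57BL/6 and Winnie, and Gstt1 and Gstt3 are lower in Winnie males than in Winnie females.

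The pathway around the enzymes was described from lists of cofactor supply, export, regulation and deconjugation. Of 16 tested genes that supply cofactors, 3 rose and 3 fell in Winnie-Prolapse against C57BL/6, with a median log2 fold change of 0.01. All counts of these lists stand against 9.84% of all genes that rose and 8.47% that fell, and a median of -0.01 over all genes. Ugdh, which makes UDP-glucuronic acid, stood at 246, 347 and 539 CPM in C57BL/6 and at 51.5, 70.6 and 139 CPM in Winnie-Prolapse, and fell by 2.10 ± 0.22 on the log2 scale (adjusted p = 3.03e-06). The sulphate transporter Slc26a2 fell by 2.42 ± 0.41 (adjusted p = 0.000172) and Papss1, which makes activated sulphate, by 0.63 ± 0.10 (adjusted p = 0.000118). Glutathione reductase Gsr rose by 0.84 ± 0.11 (adjusted p = 1.78e-05). The groups did not overlap in any of these 4 genes. The others that rose were the sugar-nucleotide carrier Slc35b1 and the cystine carrier Slc7a11. Of 12 transporters, 3 fell and 1 rose (median log2 fold change -0.33). Abcb1a, which pumps drugs into the lumen, fell by 2.41 ± 0.37 (adjusted p = 8.89e-05), Abcc2, which exports conjugates, by 3.05 ± 0.45 (adjusted p = 5.44e-05), and the uptake carrier Slco2b1 by 0.69 ± 0.11 (adjusted p = 0.000152). Abcc4, a conjugate exporter of the other cell face, rose by 1.16 ± 0.23 (adjusted p = 0.000744).

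Of 17 transcription factors known to control such enzymes, 1 rose and 1 fell, no larger a share in either direction than over all genes (9.84% and 8.47%). Bach1, a repressor of antioxidant genes, rose by 0.85 ± 0.11 on the log2 scale (adjusted p = 1.23e-05) and the fatty acid receptor Ppara fell by 1.56 ± 0.21 (adjusted p = 2.74e-05). Of 12 known targets of the antioxidant factor NFE2L2 outside the rule, 5 rose and 0 fell, with a median log2 fold change of 0.59 (9.84% of all genes rose and 8.47% fell). Pgd and G6pdx, which make NADPH, rose by 0.88 ± 0.09 (adjusted p = 2.19e-06) and 1.02 ± 0.14 (adjusted p = 2.75e-05), Txnrd1 by 0.85 ± 0.13 (adjusted p = 7.94e-05), and Slc7a11 by 3.69 ± 0.44 (adjusted p = 9.14e-06). Of 5 hydrolases, the glucuronide-splitting Gusb rose by 1.22 ± 0.13 (adjusted p = 2.66e-06) and the epoxide hydrolase Ephx1 fell by 0.86 ± 0.17 (adjusted p = 0.000635). Of 10 other conjugating enzymes 0 were called, and 3 fell and 1 rose at the looser limit (17.7% and 16.7% of all genes).

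Cell type markers were read beside these results. All 10 markers of gut epithelium were expressed and 0 were called in any comparison, with a summed level of 9550 to 11700 CPM in C57BL/6 and 10100 to 16500 CPM in Winnie-Prolapse, ranges that overlapped and did not lie lower in Winnie-Prolapse. Of 10 mature colonocyte markers, 2 fell, 6 fell at the looser limit and 1 rose at that limit, with a median log2 fold change of -2.11 and a summed level of 7710 to 12700 CPM in C57BL/6 and 1820 to 8960 CPM in Winnie-Prolapse. Of 8 goblet cell markers, 2 rose and 1 fell, 4 fell at the looser limit, and their summed level went from 10800 to 15200 CPM in C57BL/6 to between 3760 and 13900 CPM in Winnie-Prolapse (medians 12400 and 5130 CPM). All 9 smooth muscle markers fell, 4 of 9 leukocyte markers rose, and the summed squamous markers went from at most 3.63 CPM in C57BL/6 to between 2.80 and 3560 CPM in Winnie-Prolapse. The part of mature colonocytes, goblet cells, smooth muscle, leukocytes and squamous tissue was not tested, for the members or for the pathway lists.

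**Figure D5:**
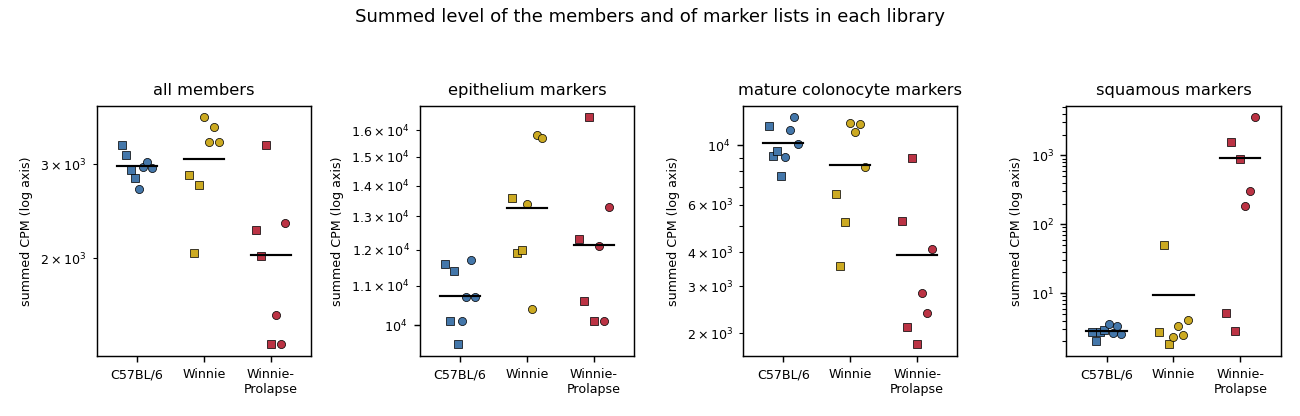
Summed level of all members, of gut epithelium markers, of mature colonocyte markers and of squamous markers in each library, in CPM on log axes that do not start at 0. Squares are males, circles are females and horizontal lines are means. The lowest libraries for the members (1380 CPM) and the colonocyte markers (1820 CPM) are in Winnie-Prolapse, where the epithelium markers stay within 10100 to 16500 CPM and the squamous markers reach 3560 CPM.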

How the data were processed

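The labels and the study's methods describe poly(A) selection, a stranded library kit, and processing with RNAsik 1.5.4, STAR and featureCounts on GRCm38. The authors deposited raw read counts per gene for 46078 rows, with no normalization. The annotation release, the strand setting and the handling of shared reads are not given in the sources used here. All libraries were assigned to groups from the labels and numbered within a group in accession order. The labels give no library or sequencing batch.

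The members and gene lists were chosen with earlier results of these data known. Differences in read counts were fitted in edgeR 4.0.16 (R 4.3.3; TMM, filterByExpr, quasi-likelihood F test, Benjamini-Hochberg over all genes tested), at the limits of the study's methods, an adjusted p under 0.001 and 1.5-fold, or 0.05 as a looser limit. Males and females were compared in 1 fit of the 22 libraries that also held a group term, and the sex by group interaction was added after seeing the data. DESeq2 1.42.0, limma-voom (limma 3.58.1), other filters and scalings, a sex covariate, each sex alone and leaving out each library were alternatives. Scripts were tested on simulated data. P-values measure the spread between these samples.

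Named members were Fmo5, the highest member of each subfamily, those called in any comparison with a mean log2 CPM of 0 or more, and those past the looser limit. A few neighbours in the same gene run were added after their values were seen. In each pathway list up to 4 called genes of highest mean level were named. Positions came from GENCODE M21, which matched 61 members, and promoters from RefSeq (GRCm38.p6). Levels per kilobase used merged exon lengths. No pair of libraries agreed within sampling noise. Some items are not reported here.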

Additional observations from a re-analysis of the deposited data

Results flagged for a closer look

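In 11 of 87 groups of values examined for the named members, 1 library lay far from the others of its group by Dixon's limit, which chance exceeds in about 1 of 20 groups. C57BL/6 replicate 7 accounted for 5 of them: Gstk1 at 71.2 CPM (nearest library 35.7 CPM), Sult4a1 at 8.14 CPM (5.58 CPM), Sult1d1 at 310 CPM (208 CPM), Gstm6 at 6.4 CPM (12.5 CPM) and Ugt2b1 at 0.175 CPM (0.469 CPM). Neutrophil markers summed to 4.02 CPM in this library, the lowest of its group.

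Winnie-Prolapse replicate 3 stood high in Mgst3, at 778 CPM (nearest library 433 CPM), in Gsta1, at 54.3 CPM (22.7 CPM), and in Sult4a1, at 2.66 CPM (1.32 CPM). In Winnie, replicate 2 was low in Gstm1 at 139 CPM (256 CPM), replicate 5 was high in Ugt1a6a at 9.23 CPM (5.74 CPM), and replicate 3 was high in Sult1e1 at 1.81 CPM (0.513 CPM). The last of these was a male, and the females of that group were at 0.

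The change from C57BL/6 to Winnie differed between males and females for Gstt1, by -1.51 on the log2 scale, and for Gstt3, by -0.92, in edgeR's interaction test (adjusted p = 0.0406 and 0.0422). At an unadjusted p under 0.05, 14 of 35 members differed, against 18.2% of all genes. For 13 of the 14 the change, not the level, was lower in males than in females, and 48.5% of all genes past that limit were negative. Without Winnie replicate 2, 1 of the 3 Winnie males, 7 members differed at that limit.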

How the results depend on the processing

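No called result changed direction under any alternative that was run. Members called in Winnie against C57BL/6 numbered 0, and 3 by DESeq2, 1 with no filter on low counts, 4 at an adjusted p under 0.05 and 0 to 1 when a library was left out (1 without Winnie replicate 5). In Winnie-Prolapse against C57BL/6 the 11 calls became 0 in males alone, 0 in females alone, 17 at the looser limit and 7 to 12 when a library was left out, and 9 to 15 under the other alternatives. In Winnie-Prolapse against Winnie the 0 calls became 6 by DESeq2, 1 with all 3 groups in 1 fit and 14 at the looser limit. Between the sexes the 1 call became 0 without the Winnie-Prolapse group. Members whose Winnie change differed between the sexes numbered 2, and 0 to 3 when a library was left out. The causes were not tested, other than that fits of 1 sex held fewer samples. For single members, leaving out a library gave the same call in 1170 cases, a lost call in 27 and a gained call in 3, and the other alternatives 684, 28 and 16. No paired analysis was possible because the labels give no replicate numbers, and those used here follow the sample list and pair no samples. Depth limits the 13 members whose reads were too few for edgeR's test between groups. For those of the Ugt1a locus and for Ugt2a1 and Ugt2a2, exons shared with other genes are a further limit.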
